A study of Caenorhabditis elegans with 64 samples.

Results

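The mRNA of *simr-1* mutants was compared with that of wild-type *C. elegans* in the first generation raised at 25°C. The comparison rests on 6 of the 64 libraries of the series, chosen by their labels: 3 mRNA libraries of *simr-1* mutants and 3 of wild-type animals, both labelled 25°C and 1 generation. Wild type was the N2 strain, and the mutants were strain USC863, which carries *simr-1*(*cmp36*), a CRISPR deletion allele of C06A5.6 on chromosome I, with no other labelled allele. Each sample was about 10000 whole day 1 adults, grown from synchronized larvae and harvested about 48 h later at 25°C, or about 68 h later at 20°C, so the mutant is represented by a single allele in a single strain and all tissues were pooled. Libraries of both genotypes from 20°C and from generations 2, 7 and 10 of the 25°C cultures, and the small RNA libraries of generation 1 (2 for each genotype), were used to show where the first generation differed.

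SIMR-1 is a Tudor domain protein of germ cells that sits beside the Mutator foci, where RNA-dependent RNA polymerases make secondary siRNAs on mRNAs that have been recognized by piRNAs. Argonaute proteins of the WAGO clade carry these siRNAs and silence the mRNAs they match. In the adult hermaphrodite most RNA of the gonad is made in the germ cells and the growing oocytes, which load eggshell proteins and RNA-binding proteins that pattern the embryo, while the intestine secretes yolk proteins that the oocytes take up.

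The 6 libraries held between 12702687 (*simr-1* replicate 2) and 19110834 (wild-type replicate 1) counts, and after summing lines of the same name 16267 of 45904 names reached 10 counts over the 6 libraries and were tested. Levels are given in counts per 1000000 counts (CPM, scaled by the trimmed mean of M-values over these 6 libraries), and changes as log2 fold changes of *simr-1* over wild type ± standard error from edgeR's quasi-likelihood test. A name was called higher or lower when its Benjamini-Hochberg adjusted p was at most 0.05 and its change at least 2-fold. The labels call the samples biological replicates without tying them to cultures, so the tests measure the spread between these samples. The defining genes of the pooled tissues were present in all 6 libraries: the summed level of 29 germline genes ranged from 3955 to 6130 CPM, of 12 intestine genes from 7652 to 13840 CPM, of 15 body wall muscle genes from 3467 to 6584 CPM and of 14 neuron genes from 310.0 to 494.3 CPM.

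The *simr-1* transcript itself was at 62.6, 67.2 and 62.8 CPM in wild type and at 6.88, 7.80 and 8.62 CPM in the mutants. All 3 mutant libraries lay below all wild-type libraries, with a log2 change of -3.04 ± 0.09 (adjusted p = 1.5e-15), so the labels hold. Over all names, 1298 were higher in *simr-1* (7.98% of those tested) and 3535 were lower (21.7%), and the median change was -0.15. Most of the excess of lower names lay among weakly expressed genes: of the 8266 names at 10 CPM or more in either genotype, 739 were higher and 1065 lower, with a median change of 0.22. The 2 groups of libraries did not overlap for many names whatever the size of the change, with all 3 *simr-1* libraries above wild type for 32.6% of the names tested and below for 39.2%. Scaling to library size alone or to the upper quartile moved the median of all names to -0.28 and -0.35, so the changes below are best read beside the median of all names. The plot of change against level shows the gene groups that are described in turn.

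**Figure D1:**
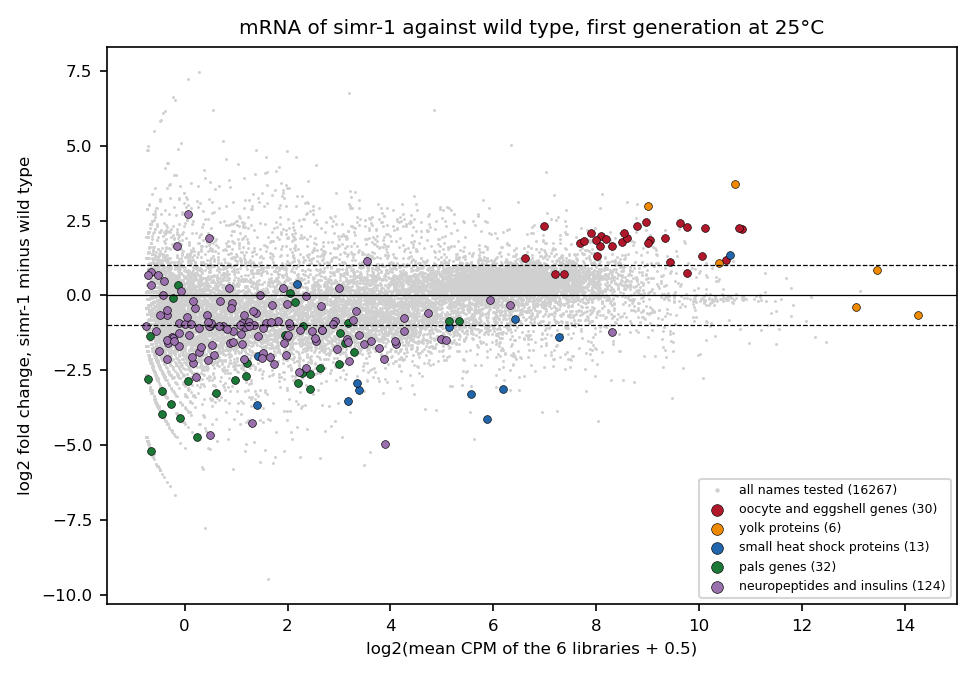
The log2 fold change of *simr-1* over wild type (vertical axis) is plotted against the log2 mean CPM of the 6 libraries plus 0.5 (horizontal axis); each grey point is 1 of 16267 names, coloured points are members of 5 gene lists, and dashed lines mark a 2-fold change. The 30 oocyte and eggshell genes all lie above 0, and small heat shock protein, *pals* and neuropeptide genes lie mostly below it.

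Genes of the growing oocyte and its eggshell were higher together in *simr-1* than in wild type. Of 30 oocyte and eggshell genes tested, 27 were higher in *simr-1*, none was lower, and the 3 *simr-1* libraries lay above the 3 wild-type libraries for all 30. Their median change was 1.85, against -0.15 for all names tested. *egg-1*, which encodes a receptor-like protein of the oocyte surface needed for fertilization, was at 166, 162 and 137 CPM in wild type and at 846, 789.9 and 905 CPM in *simr-1*. The mutant libraries were all above the wild-type ones, a rise of 2.45 ± 0.08. *puf-5*, a Pumilio-family RNA-binding protein of late oogenesis, was at 271, 261 and 216 CPM in wild type and at 1340, 1276 and 1413 CPM in *simr-1* (2.43 ± 0.09). *cbd-1*, a chitin-binding protein of the eggshell, was at 671, 634 and 526 CPM in wild type and at 2852, 2976 and 2875 CPM in *simr-1* (2.25 ± 0.09). For these and the chondroitin proteoglycan gene *cpg-2* (2.23 ± 0.09), the CCCH zinc-finger gene *oma-2* (2.32 ± 0.08) and the Nanos-family gene *nos-2* (2.33 ± 0.08), adjusted p was at most 6.5e-14. Between 20°C and generation 1, the median of this list changed by -1.71 in wild type and by 0.13 in *simr-1*. In whole animals, a difference in the number of oocytes and a difference in RNA per oocyte cannot be told apart, in either genotype.

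Genes of the germline as a whole moved less. Of 29 germline genes, *glh-4* (1.54 ± 0.07) and *pgl-3* (1.43 ± 0.07), both components of P granules, rose and none fell. The share of higher genes was 6.90%, against 7.98% of all names and 8.94% of names at 10 CPM or more. The translational repressor *gld-1*, which is abundant in the distal germline, was at 694, 702 and 668 CPM in wild type and at 1314, 1153 and 1296 CPM in *simr-1*. Its libraries did not overlap but its change, 0.87 ± 0.08, was under 2-fold, and the median of the germline list was 0.44. Among 17 sex determination genes 5 rose (29.4%, against 7.98% of all names) and none fell. Among the 5 were *fog-1* (1.08 ± 0.08) and *fem-3* (1.05 ± 0.06), whose rises ended under 2-fold when libraries were scaled to library size only (0.95 and 0.92). Sperm genes did not follow the oocyte genes: none of 29 major sperm protein genes was called, with a median of 0.21, and 2 of 51 other spermatogenesis genes were higher and 4 lower. The summed level of the major sperm protein genes, near-identical copies between which the split of counts is uncertain, was 37.5 to 41.5 CPM in wild type and 36.3 to 51.2 CPM in *simr-1*, ranges that overlapped. Of 33 proteasome subunits, 32 had all *simr-1* libraries above wild type, against 32.6% of all names, and the list median was 0.70. Only *rpn-1*, a regulatory particle subunit, passed 2-fold (1.12 ± 0.07, and 0.99 with library size only). That is 3.03% of the list, against 7.98% of all names. None of 80 cytoplasmic ribosomal protein genes was called (median -0.11).

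The yolk protein genes did not move as a group. Vitellogenins are made in the intestine and taken up by oocytes, and of the 6 genes 3 rose, none fell by 2-fold and 1 had all *simr-1* libraries below wild type. *vit-4* was at 328, 251 and 126 CPM in wild type and at 2825, 3421 and 3022 CPM in *simr-1*, a rise of 3.71 ± 0.22 (adjusted p = 8.5e-12). *vit-1* rose by 2.99 ± 0.16 and *vit-3* by 1.07 ± 0.17, the last under 2-fold with library size only (0.96) or the upper quartile (0.88), and without *simr-1* replicate 2 (0.91) or wild-type replicate 3 (0.86). In contrast, *vit-2* was at 27160, 24950 and 20200 CPM in wild type and at 13880, 17780 and 14410 CPM in *simr-1*. The mutant libraries were the lower ones, but the change of -0.65 ± 0.12 was under 2-fold. *vit-5* changed by -0.38 ± 0.11, with overlapping groups, and *vit-6* by 0.83 ± 0.14. The *vit-3*, *vit-4* and *vit-5* copies are nearly identical, so their counts may be exchanged between them, and the sum over the 6 genes was 35350 to 50000 CPM in wild type and 39550 to 48990 CPM in *simr-1*, so the groups overlapped.

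Vitellogenin promoters share 2 short boxes, TGTCAAT and CTGATAA, and the 200 bases before the gene start are shown for the yolk gene that rose most and for the most abundant one, which did not rise. They were read from WBcel235 on the gene's strand, 5′ to 3′, with matches to either box on either strand in capitals.
*vit-4*, chrX:3563975-3564174, minus strand: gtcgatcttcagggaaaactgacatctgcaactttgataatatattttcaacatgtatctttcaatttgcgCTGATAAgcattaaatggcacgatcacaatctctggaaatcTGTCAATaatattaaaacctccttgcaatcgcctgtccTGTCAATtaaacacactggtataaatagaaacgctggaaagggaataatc
*vit-2*, chrX:5100832-5101031, plus strand: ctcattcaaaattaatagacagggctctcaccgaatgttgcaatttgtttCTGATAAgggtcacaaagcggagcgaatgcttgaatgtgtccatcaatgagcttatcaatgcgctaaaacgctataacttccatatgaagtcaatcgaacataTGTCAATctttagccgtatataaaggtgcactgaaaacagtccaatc
The *vit-4* window held 3 matches and the *vit-2* window 2, and none of the matches overlapped another. All 6 yolk genes held TGTCAAT in this window and 5 of 6 held CTGATAA, against 3.84% and 5.93% of the windows of 19608 protein-coding genes. The boxes were thus present both before yolk genes that rose and before those that did not.

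**Figure D2:**
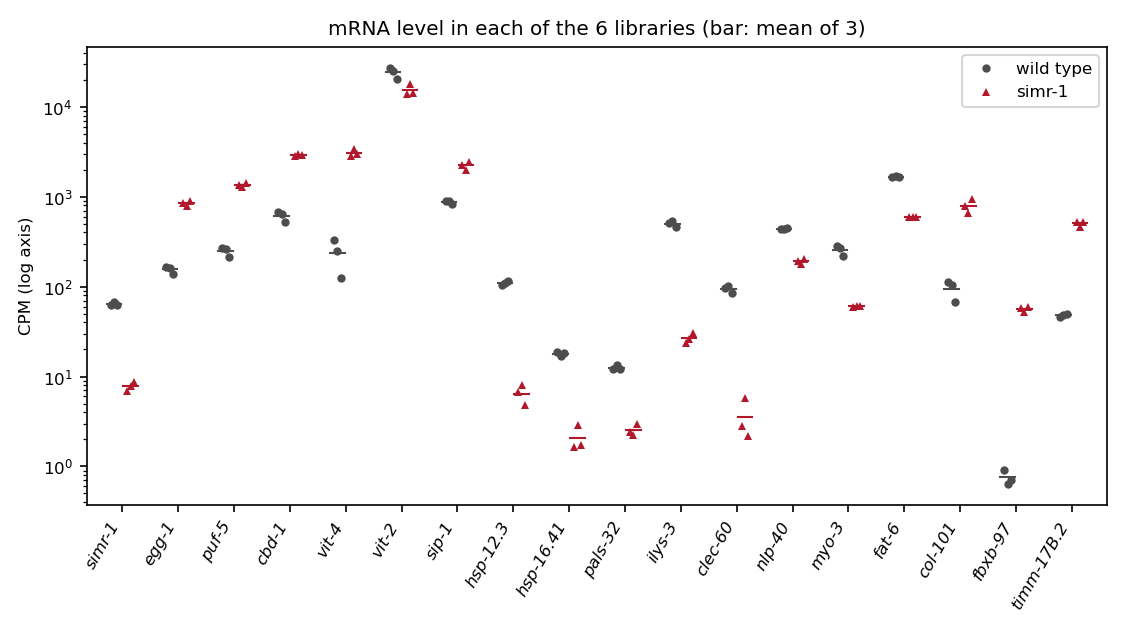
CPM on a log axis of 18 genes in each of the 6 libraries (circles, wild type; triangles, *simr-1*; bars, mean of 3 libraries). The 2 genotypes do not overlap for any gene shown, with *vit-2* the closest pair.

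Small heat shock proteins were among the genes that fell most. These are chaperones of the alpha-crystallin family, and several are induced by heat and other protein damage under the transcription factor HSF-1. Of 13 tested, 10 were lower in *simr-1* (76.9%, against 21.7% of all names) and 1 was higher, with a median of -2.91. *hsp-12.3* was at 105, 111 and 115 CPM in wild type and at 6.65, 7.96 and 4.78 CPM in *simr-1*, lower in every mutant library by a change of -4.12 ± 0.11 (adjusted p = 2.0e-16). *hsp-16.41*, a heat-inducible member, was at 18.7, 17.02 and 18.4 CPM in wild type and at 1.63, 2.89 and 1.73 CPM in *simr-1* (-3.16 ± 0.16). *hsp-16.48* (-3.12 ± 0.10) and the T27E4.8 copy of *hsp-16.1* (-3.28 ± 0.09) fell as well, and each has a near-identical copy that may share its counts. *sip-1*, a small heat shock protein of oocytes and embryos, went the other way: it was at 891, 889 and 831 CPM in wild type and at 2254, 1972 and 2448 CPM in *simr-1*, a rise of 1.35 ± 0.09. Among the larger chaperones, the inducible HSP70 genes F44E5.4 (-3.28 ± 0.26), F44E5.5 (-2.12 ± 0.12) and *hsp-70* (-2.64 ± 0.21) fell, whereas the endoplasmic reticulum chaperone *hsp-4* rose (1.09 ± 0.07, and 0.97 with library size only). The constitutive *hsp-1* and *hsp-90* changed by 0.76 ± 0.08 and 0.56 ± 0.08, under 2-fold.

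HSF-1 binds repeats of the triplet GAA, and the 200 bases before *hsp-16.41* are shown because this interval lies between *hsp-16.41* and the divergent *hsp-16.2*. The window was searched for GAANNTTC, 2 inverted triplets that read the same on both strands, and the match is in capitals. The opposite order of the 2 inverted triplets was not searched, so sites of that kind are left unmarked and uncounted.
*hsp-16.41*, chrV:1804978-1805177, plus strand: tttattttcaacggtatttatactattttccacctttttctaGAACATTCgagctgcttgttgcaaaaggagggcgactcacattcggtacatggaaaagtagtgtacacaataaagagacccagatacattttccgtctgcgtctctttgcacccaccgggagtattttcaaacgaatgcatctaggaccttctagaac
Of the 13 small heat shock protein genes, 5 held GAANNTTC in this window, all of them *hsp-16* genes, against 2462 of the 19608 windows of all protein-coding genes. *hsp-12.3* and *hsp-12.6*, which also fell (-4.12 ± 0.11 and -3.52 ± 0.22), held no GAANNTTC there. A search of 200 bases for a single order of the triplets cannot show that a gene lacks HSF-1 sites. The part of HSF-1 in these changes was not tested.

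Many *pals*, antimicrobial and C-type lectin genes were lower in *simr-1*. The *pals* genes are a nematode family of unknown biochemical function, many of which are induced by intracellular infection and proteotoxic stress. Of 32 tested, 24 were lower in *simr-1* (75.0%, against 21.7% of all names) and none was higher, with a median of -2.36. All *simr-1* libraries lay below wild type for 27 of them, against 39.2% of all names. *pals-34* was at 14.4, 13.04 and 16.44 CPM in wild type and at 4.08, 3.46 and 4.23 CPM in *simr-1* (-1.88 ± 0.13), and *pals-32* fell with it (-2.28 ± 0.14). Regulators of the intracellular pathogen response are encoded in the same family, and *pals-22*, a repressor of it, and *pals-25*, its activator, were not called (-0.21 ± 0.17 and 0.09 ± 0.17). Genes of that response were not tested as a list of their own. Of 81 lysozyme, saposin and other antimicrobial genes, 39 were lower (48.15%, against 21.7% of all names) and 4 higher (median -1.05). *ilys-3*, an invertebrate-type lysozyme of the pharynx and intestine, was at 506, 530.4 and 461 CPM in wild type and at 23.7, 26.3 and 30.7 CPM in *simr-1*. No mutant library came near the wild-type range, and the change was -4.21 ± 0.09 (adjusted p = 3.0e-17). The antibacterial factor *abf-2* (-3.20 ± 0.15) and the saposin-like *spp-5* (-1.35 ± 0.07) fell, while *irg-8* (2.52 ± 0.10) and *irg-4* (2.41 ± 0.12), 2 infection response genes, rose. Of 147 C-type lectin genes, 47 were lower and 14 higher (median -0.71). These shares were 31.97% and 9.52%, against 21.7% and 7.98% of all names. *clec-60* was at 96.5, 102 and 84.5 CPM in wild type and at 2.80, 5.71 and 2.17 CPM in *simr-1* (-4.81 ± 0.16), whereas *clec-87*, a chondroitin proteoglycan, rose by 1.83 ± 0.09.

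Neuropeptide genes were lower, while muscle markers were mostly lower by less than 2-fold. Of 124 neuropeptide and insulin-like genes, 69 were lower (55.65%, against 21.7% of all names) and 4 higher, with a median of -1.12. *nlp-40*, an intestinal peptide that times defecation, was at 436, 437 and 454 CPM in wild type and at 195, 177 and 201 CPM in *simr-1* (-1.21 ± 0.07). *nlp-39* was at 24.04, 29.4 and 30.1 CPM in wild type and at 1.11, 0.884 and 0.668 CPM in *simr-1*, a change of -4.96 ± 0.17. Of 14 neuron markers 5 were lower (35.7%, against 21.7% of all names) and none higher. Among the lower ones were the syntaxin *unc-64* (-1.37 ± 0.08) and the proprotein convertase *egl-3* (-1.18 ± 0.10). The summed level of the 14 markers was 473.7 to 494.3 CPM in wild type against 310.0 to 360.4 CPM in *simr-1*. Of 15 body wall muscle markers 3 were lower and none higher, a share of 20.0% against 21.7% of all names, with a median of -0.63. The count was 2 with DESeq2 and 6 with library size only or the upper quartile. At 10 CPM or more, 3 of 14 were lower, against 12.88% of names at that level. All *simr-1* libraries lay below wild type for 12 of the 15 and above it for 1, against 39.2% and 32.6% of all names. *myo-3*, a myosin heavy chain, was at 279.8, 266 and 216 CPM in wild type and at 58.6, 61.3 and 61.6 CPM in *simr-1* (-2.07 ± 0.08), and *unc-15*, paramyosin, changed by -1.15 ± 0.08. *unc-54*, the major body wall myosin, changed by -0.96 ± 0.09, under 2-fold, and the muscle sum was 5636 to 6584 CPM in wild type and 3467 to 3944 CPM in *simr-1*. Where the scaling is relative, a rise of abundant oocyte mRNAs and a fall of somatic mRNAs share 1 total: the oocyte list took 7158 to 8161 CPM in wild type and 25470 to 27660 CPM in *simr-1*, and its part in the somatic changes was not tested.

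Few intestine markers were called. Of 12 tested 1 rose and 1 fell (8.33% each way, against 7.98% and 21.7% of all names), which became none and 2 with library size only and none and 4 with the upper quartile. The aspartic protease *asp-1* was at 7256, 7600 and 6367 CPM in wild type and at 2658, 2696 and 2741 CPM in *simr-1* (-1.39 ± 0.09), while the GATA factor *elt-2* that specifies the intestine changed by -0.80 ± 0.09. Among 16 fatty acid desaturases and elongases, the delta-6 desaturase *fat-3* (-2.01 ± 0.08) and the delta-9 desaturase *fat-6* (-1.49 ± 0.07) fell, and *fat-7*, another delta-9 desaturase, rose (1.25 ± 0.13). *fat-6* was at 1636, 1687 and 1656 CPM in wild type and at 593, 588 and 589.6 CPM in *simr-1*, with no overlap. Of 167 cytochrome P450, glutathione transferase and UDP-glucuronosyltransferase genes, 39 were lower, among them *cyp-34A9* (-2.29 ± 0.11), and 23 higher, among them *ugt-22* (2.47 ± 0.07). These shares were 23.35% and 13.77%, against 21.7% and 7.98% of all names. Of 191 nuclear receptor genes, 56 were lower (29.3%) and 9 higher (4.71%), and *nhr-114* was 1 of the 9 (1.53 ± 0.09). The F-box (96 lower and 21 higher of 258), MATH and BATH (30 and 5 of 64) and chemoreceptor families (57 and 12 of 165, out of 1295 named) had more lower than higher calls, with 37.2%, 46.9% and 34.5% lower against 21.7% of all names and medians between -0.95 and -0.91. Chemoreceptor calls rest on few counts, and DESeq2 called 29 of them lower and 9 higher. Of 10 pharynx markers 4 were higher and 1 lower, a split that became 1 and 3 with the upper quartile, and of 10 hypodermis markers 1 was higher and 4 lower. Of 9 gonad sheath and spermatheca markers 3 were higher and none lower (1 and 1 with the upper quartile). Of 32 early zygotic embryo genes 5 were higher (15.6%) and 7 lower (21.9%), the latter near the share of all names.

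The cuticle genes held strong changes in both directions. Of 132 collagen genes, 50 were lower (37.9%, against 21.7% of all names) and 20 higher (15.15%, against 7.98%). At 10 CPM or more, in contrast, 10 were lower and 15 higher. *col-101* was at 114, 103 and 66.7 CPM in wild type and at 782, 655 and 932 CPM in *simr-1* (3.06 ± 0.15), and *col-93* was at 15.6, 16.96 and 10.45 CPM and at 238, 196 and 307 CPM (4.11 ± 0.15). Both genes had every mutant library above every wild-type library. *dpy-14*, a collagen required in late embryonic and early larval cuticles, fell from 22.2, 23.1 and 30.5 CPM to 5.36, 3.46 and 2.00 CPM (-2.81 ± 0.20), and *cut-3*, a cuticlin, from 15.8, 29.9 and 35.8 CPM to 1.52, 1.04 and 0.167 CPM (-4.92 ± 0.35). Of 58 molting genes 24 were lower and 5 higher, with the astacin metalloprotease *nas-37* at -2.13 ± 0.07 and the hedgehog-related *grd-3* at 2.27 ± 0.16. These shares were 41.4% and 8.62%, against 21.7% and 7.98% of all names. Only 6 molting genes were at 10 CPM or more, of which 1 was lower and 2 higher.

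Among the genes of small RNA pathways, 5 Argonaute and RNA interference genes rose and none fell. They were 2 of 9 WAGO genes, 1 of 9 primary, piRNA and CSR-1 Argonautes and 2 of 19 polymerase, Dicer and ERI genes. Of all names, 7.98% were higher and 21.7% lower, or 8.94% and 12.88% at 10 CPM or more. Whether these small lists differ from those shares was not tested. None of 11 Mutator complex genes was called by edgeR, with a median of 0.40 and a range from -0.18 (*nyn-1*) to 0.98 (*nyn-2*). *nyn-2*, a predicted nuclease gene, was called with DESeq2 (1.05) and without *simr-1* replicate 2 (1.01) or wild-type replicate 2 (1.02). The scaffold gene *mut-16* changed by 0.08 ± 0.09. The nuclear Argonaute gene *hrde-1* was at 311, 297 and 279.8 CPM in wild type and at 839.6, 881 and 813.5 CPM in *simr-1* (1.51 ± 0.07), and *wago-1* rose by 1.48 ± 0.07. The other 7 WAGO genes tested were not called, and the median of the list was 0.05 (-0.07 with library size only and -0.14 with the upper quartile). Of 9 primary, piRNA and CSR-1 Argonautes, *ergo-1* rose (1.15 ± 0.07, and 0.96 with the upper quartile), while the Piwi gene *prg-1* changed by 0.39 ± 0.06 and *csr-1* by 0.29 ± 0.07. *rde-11* (1.43 ± 0.08) and the dsRNA-binding gene *rde-4* (1.19 ± 0.07) rose among 19 RNA-dependent RNA polymerase, Dicer and ERI genes. Of 52 histone genes, 4 were higher (7.69%) and 10 lower (19.2%), shares near those of all names. Many are near-identical copies without poly(A) tails, so their counts are uncertain. Of 12 genes of the mitochondrial genome, 1 was higher and 1 lower.

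**Figure D3:**
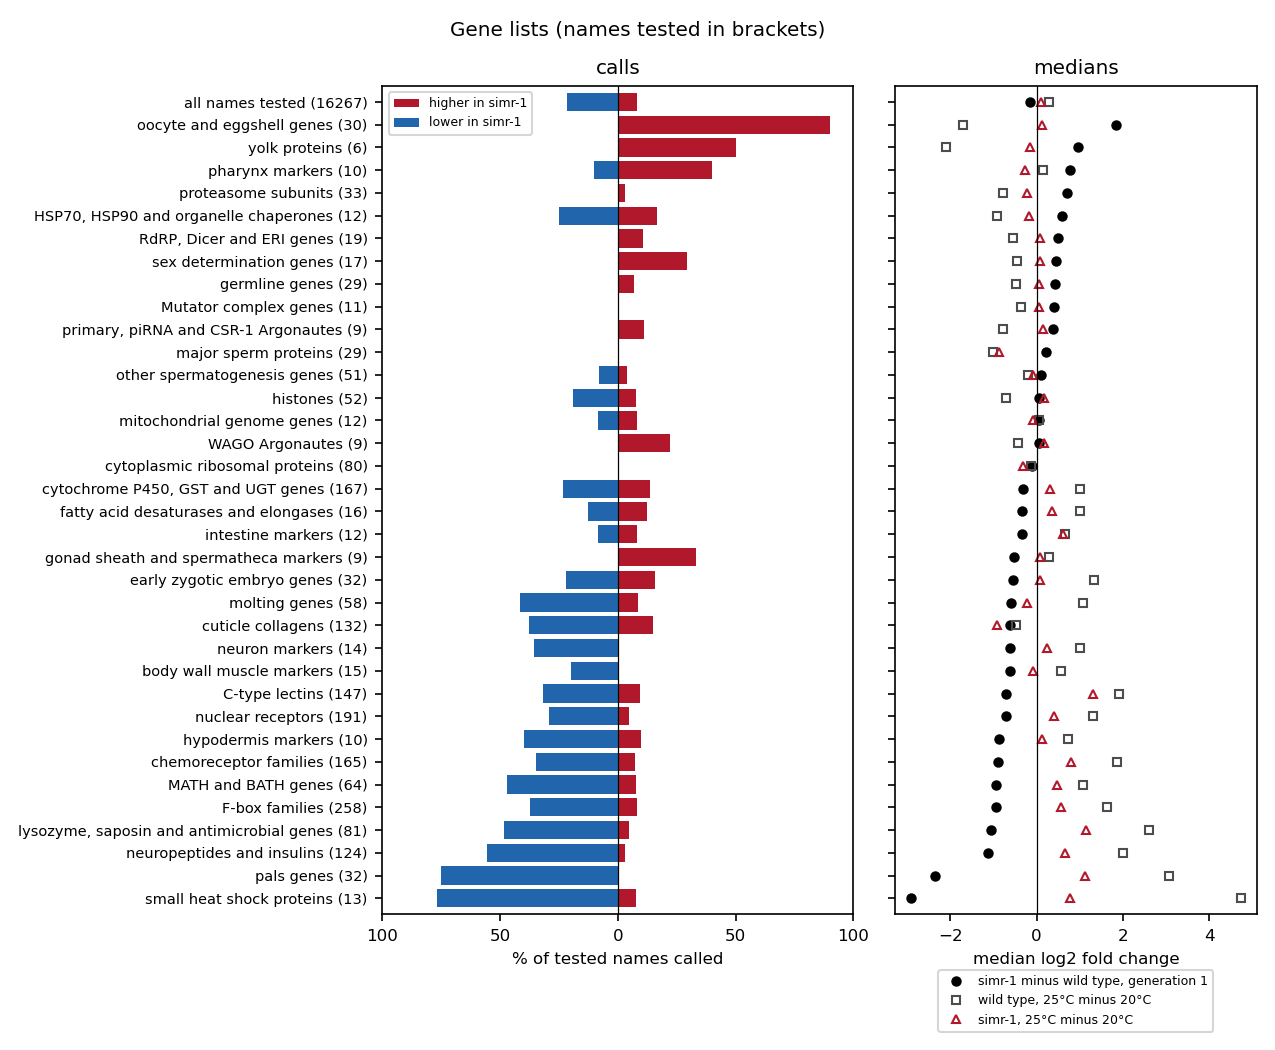
For 35 gene lists and all names tested, the left panel gives the percentage of tested names called higher (red, to the right) or lower (blue, to the left) in *simr-1* at generation 1, and the right panel gives median log2 fold changes: *simr-1* minus wild type at generation 1 (filled circles), and generation 1 at 25°C minus 20°C within wild type (squares) and within *simr-1* (triangles). In the oocyte, yolk, small heat shock and *pals* lists the squares lie far from 0 and the triangles nearer to it.

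The 10 largest rises among genes at 10 CPM or more included several genes without a known role. C32B5.6, on chromosome II, was at 0.205, 0.0642 and 0.176 CPM in wild type and at 17.2, 15.0 and 19.5 CPM in *simr-1* (6.75 ± 0.24). *fbxb-97*, an F-box gene on chromosome II, was at 0.921, 0.642 and 0.705 CPM in wild type and at 57.5, 52.4 and 58.6 CPM in *simr-1* (6.18 ± 0.14). *folt-2*, a folate transporter gene on chromosome V, was at 3.84, 7.77 and 3.05 CPM and at 163, 153 and 153 CPM (5.03 ± 0.15). All 3 were separated from wild type by more than an order of magnitude. ZK892.6 (4.35 ± 0.22), K08H2.3 (3.49 ± 0.19), ZC53.1 (3.44 ± 0.17), the pseudogene C25A11.10 (3.43 ± 0.17) and *timm-17B.2* (3.40 ± 0.08), a paralog of a mitochondrial import subunit, followed with *col-93* and *vit-4*. The 10 largest falls at 10 CPM or more were of *mtre-1*, at 12.9, 20.1 and 29.9 CPM in wild type and 0.700, 0.482 and 0.0556 CPM in *simr-1* (-5.68 ± 0.39), and of C54C8.12, *fbxa-163*, *nlp-39*, *cut-3*, *clec-60*, *clec-15*, F40G12.5, T26H5.8 and *ilys-3*, between -5.43 and -4.21. Adjusted p was at most 1.8e-10 for each of these 20 genes.

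Lower calls were not evenly spread over the genome. On chromosomes V and X, 28.3% and 27.7% of the names tested were lower, against 14.7% on chromosome I and 15.5% on chromosome III. Chromosome X also held the largest share of higher names, 11.7%, against 6.18% on chromosome III. Among names at 10 CPM or more, 20.1% were lower on X, 18.8% on V, 7.79% on III and 6.99% on I. Pseudogenes were called more often in both directions than protein-coding genes, with 15.5% of 685 higher and 27.7% lower against 7.63% and 21.4% of 15495. No test of these shares was made, since genes of a chromosome are not independent replicates.

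To ask whether the genotypes differed in the same way at other temperatures and generations, *simr-1* was compared with wild type at 20°C and in generations 2, 7 and 10, with 3 libraries for each genotype and its own fit. At 20°C 1.90% of 14656 names were higher and 1.20% lower. At generation 2, 2161 of 17693 names were higher and 5.45% lower. At generation 7 the shares were 7.83% and 1.5%, and they were 2.24% and 8.98% by generation 10. The lists that moved at generation 1 had few calls at 20°C: the oocyte list had no called gene there and a median of 0.05, the *pals* list 1 higher and 1 lower (0.10), and the small heat shock list 1 higher and 2 lower (-0.04). At generation 2 the small heat shock list was again lower, in 9 genes and with a median of -1.66, the *pals* list in 10 genes (-0.88), and the oocyte list had none (0.44). At generation 2, 29 of 30 major sperm protein genes tested were higher (median 2.71), whereas none was at generation 1. The map of list medians by condition shows these values.

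**Figure D4:**
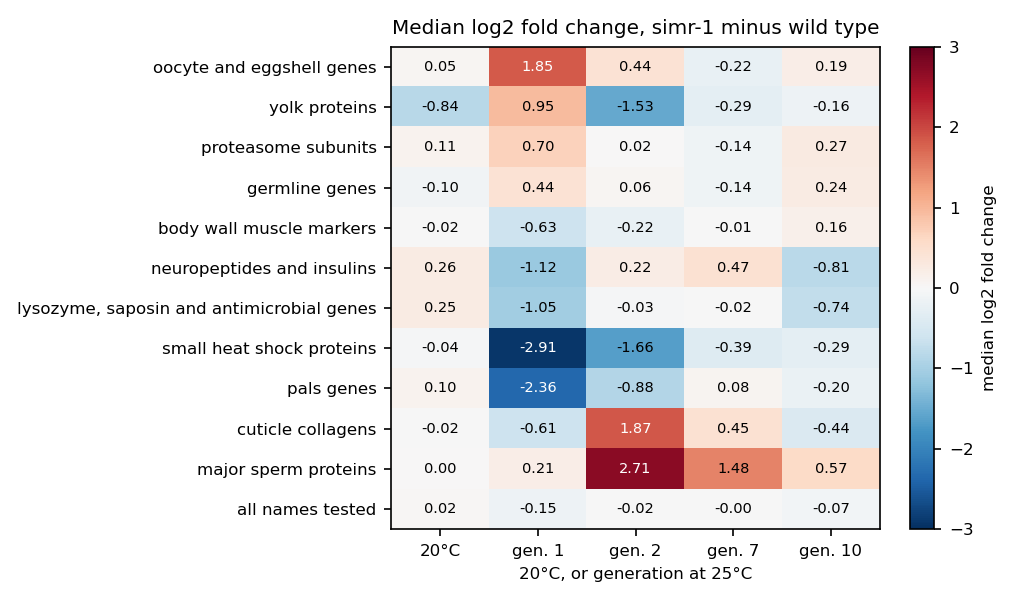
Median log2 fold change of *simr-1* minus wild type (colour scale and printed numbers) for 11 gene lists and all names tested, at 20°C and in generations 1, 2, 7 and 10 at 25°C, each from its own fit of 6 libraries. The oocyte median is 1.85 at generation 1 and between -0.22 and 0.44 elsewhere, and the major sperm protein median is largest at generation 2.

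Whether the change itself differed between conditions was tested as an interaction over 12 libraries. Compared with 20°C, the *simr-1* change was more positive at generation 1 for 6.59% of 16899 names and more negative for 16.39%. Compared with generation 2, it was more positive for 5.05% of 18127 names and more negative for 16.7%, and compared with generation 10, more positive for 6.42% of 17683 names and more negative for 12.18%. More positive changes made up 23.2% of the calls against generation 2 (11.3% with library size only and 34.7% with DESeq2) and 34.5% against generation 10 (44.7% with DESeq2). In the comparison with 20°C, the change was more positive for 25 of 30 oocyte and eggshell genes and more negative for none, while it was more negative for 19 of 33 *pals* genes, 61 of 125 neuropeptide genes and 33 of 85 antimicrobial genes.

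The same fit gives each genotype's own difference between generation 1 and 20°C. In wild type 31.4% of 16899 names were higher at generation 1 and 8.57% lower, and in *simr-1* 10.7% and 2.54%. The wild-type and mutant medians were -1.71 and 0.13 for the oocyte list, -2.11 and -0.15 for yolk proteins, 4.73 and 0.78 for small heat shock proteins, 3.07 and 1.11 for *pals* genes, 2.01 and 0.66 for neuropeptides and 0.57 and -0.08 for body wall muscle. These contrasts share the generation 1 libraries with the genotype comparison, so they are set side by side and not counted as separate evidence. The 20°C and 25°C samples also differed in time from plating to harvest, which cannot be told apart from temperature.

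Levels over all 30 libraries, scaled together, show the same in single genes. *egg-1* was at 744, 689 and 656 CPM in wild type at 20°C and at 173, 169 and 141 CPM at generation 1. In *simr-1* it was at 781, 801 and 791 CPM at 20°C and at 878, 802 and 934 CPM at generation 1. Wild type fell and *simr-1* did not (-2.15 ± 0.08 and 0.13 ± 0.08). *ilys-3* was under 1 CPM in all 6 libraries at 20°C, where the largest value was 0.386 CPM, and rose by 11.87 ± 0.19 in wild type and by 6.66 ± 0.22 in *simr-1*. *myo-3* was at 95.7, 76.6 and 73.6 CPM in wild type at 20°C and at 290.3, 277 and 224 CPM at generation 1, against 62.4, 64.9 and 62.0 CPM and then 60.8, 62.3 and 63.5 CPM in *simr-1*. Here too the wild-type libraries were the ones that moved (1.65 ± 0.09 in wild type and -0.02 ± 0.10 in *simr-1*). At generations 7 and 10 *hsp-12.3* was back between 1.44 and 3.38 CPM in all 12 libraries, from a wild-type range of 109 to 118.7 CPM at generation 1. At generation 2 *vit-4* was at 2911, 360.5 and 748 CPM in wild type, with replicate 1 far above the other two.

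Some genes were higher in *simr-1* in every condition. *timm-17B.2* was at 10.5, 12.63 and 12.9 CPM in wild type at 20°C and at 809, 717 and 857 CPM in *simr-1*, and it was higher in *simr-1* in each of the 5 conditions, by 5.99 ± 0.09 at 20°C, 3.40 ± 0.08 in generation 1 and 1.25 ± 0.06 in generation 10. Its wild-type level rose to between 125 and 144 CPM at generation 10. *fbxb-97* was higher in *simr-1* in each condition as well, by 3.22 ± 0.14 at 20°C and 1.05 ± 0.12 at generation 10, with wild type between 20.3 and 34.4 CPM at generation 10. C32B5.6 was also higher in each condition, by 1.23 ± 0.37 at 20°C (adjusted p = 0.032) and by 4.89, 4.57 and 5.24 at generations 2, 7 and 10. *folt-2* was called at generation 1 alone, with changes between -0.21 and 0.49 in the other 4 conditions. At generation 2 it was at 26.3, 2.41 and 2.58 CPM in wild type and 27.2, 4.47 and 5.99 CPM in *simr-1*, with replicate 1 the highest in both genotypes.

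**Figure D5:**
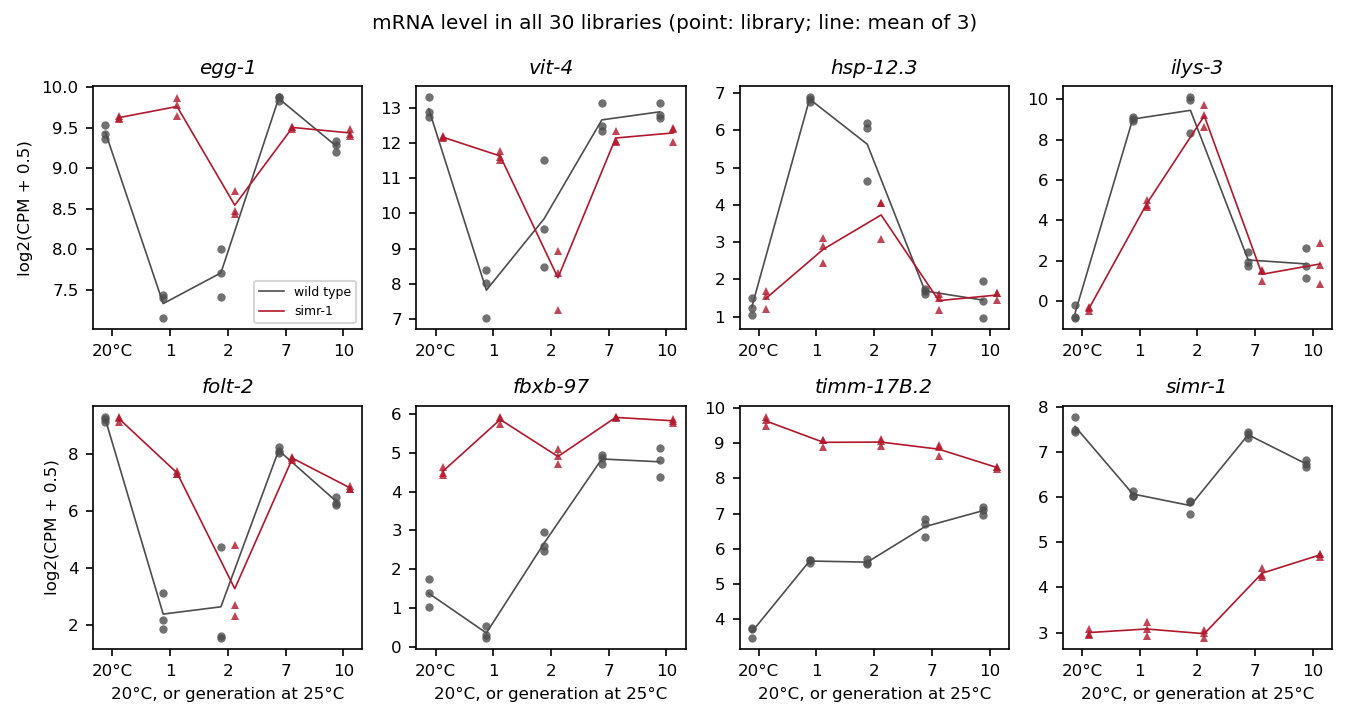
Log2 of CPM plus 0.5, scaled over all 30 libraries, of 8 genes at 20°C and in generations 1, 2, 7 and 10 at 25°C (circles, wild type; triangles, *simr-1*; each point a library, lines through the mean of 3). *egg-1*, *vit-4* and *folt-2* drop in wild type at generation 1 and not to the same extent in *simr-1*, and *timm-17B.2* and *fbxb-97* stay above wild type in *simr-1* in every condition.

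The small RNA libraries of generation 1 were used to ask how mRNAs changed where small RNAs were lost or gained. With 2 libraries for each genotype, of 2835252 to 11429717 counts, 1316 genes were depleted of small RNAs in *simr-1* (9.18% of 14341 tested) and 2512 were enriched (17.5%), by the same limits and a mean of at least 10 reads per 1000000 mapped reads (RPM). Of the depleted genes 970 had a tested mRNA: 157 were higher (16.19%) and 219 lower (22.6%), with a median of -0.28, against 7.98%, 21.7% and -0.15 for all names tested. Of the 2468 enriched genes with a tested mRNA, 301 were higher and 44 lower (1.78%), with a median of 0.42. Of the 2912 genes with at least 10 RPM that were called neither, 6.56% were higher and 3.37% lower, with a median of 0.39, so the depleted genes had larger shares in both directions than genes of that class. These shares were not tested. C32B5.6, *fbxb-97* and ZK892.6 were the depleted genes whose mRNA rose most, with small RNA changes of -3.07, -2.49 and -2.28. The depleted genes whose mRNA fell most were *ilys-3*, the T27E4.8 copy of *hsp-16.1* and *hsp-16.48*, with small RNA changes of -2.62, -4.48 and -3.85. Among enriched genes, R04D3.3 (3.13 ± 0.08), C27C12.3 (3.05 ± 0.14) and *ent-5*, a nucleoside transporter (3.04 ± 0.12), all on chromosome X, rose most. The pseudogene F59A1.9 (-4.18 ± 0.18), F07B7.2 (-3.64 ± 0.17) and *fbxa-107* (-2.66 ± 0.11), all on chromosome V, fell most. The small RNA counts were not separated by strand, so sense fragments of abundant mRNAs cannot be told apart from siRNAs in them.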

How the data were processed

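Poly(A)-selected RNA libraries (directional kit, single-end reads of 75 bases) were analysed from 1 deposited table for each sample. The authors' methods name Cutadapt, HISAT2 and Salmon with the WS258 annotation, and the GEO processing notes name Bowtie 2, featureCounts and Subread. Which of them gave the mRNA values is not stated in these sources. The deposited values are estimated counts, not all whole, which were rounded after lines with a repeated name (1066 of 46970) were summed. Symbols were paired with 45645 of 45904 names. Tests used edgeR 4.0.16 (R 4.3.3, quasi-likelihood, TMM scaling) on names with at least 10 summed counts, without a replicate block, since the groups share only replicate numbers; all 6 generation 1 libraries entered the main test, 12 each interaction. Calls needed a 2-fold change and a p of 0.05 or less after Benjamini-Hochberg adjustment. DESeq2 1.42.0, other scalings and filters, and leaving out each generation 1 library were the alternatives. The fits were tested on simulated data. Upstream windows and motif matches were read from RefSeq's WBcel235 genome with gene starts from the deposited small RNA tables. The deposited small RNA values are fractional counts without strand (estimated counts, featureCounts on WS258), given here per 1000000 mapped reads. Named genes were *simr-1*, the 10 largest rises and falls with non-overlapping groups and 10 CPM or more, the largest changes and levels in each list, small lists in full, the 3 largest changes each way among small RNA classes and the 3 largest interactions. *pals-22* and *pals-25* were named after their values were seen. The members and lists were chosen with earlier results of these data known.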

Additional observations from a re-analysis of the deposited data

Results flagged for a closer look

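The following differ between conditions, each by a test of the interaction of genotype with condition. The *simr-1* change was more positive at generation 1 than at 20°C for 1114 names and more negative for 2769, than at generation 2 for 915 and 3035, and than at generation 10 for 1136 and 2154. Against 20°C, the differences in log2 change among the genes that rose or fell most were 5.46 for C32B5.6, 2.92 for *fbxb-97*, 5.02 for *folt-2*, 4.75 for ZK892.6, 4.26 for *col-93*, 4.56 for *vit-4*, 2.94 for K08H2.3, 3.42 for ZC53.1, 3.65 for C25A11.10, -2.64 for *timm-17B.2*, -6.73 for *mtre-1*, -7.71 for *nlp-39*, -6.83 for *cut-3*, -4.33 for *clec-60*, -5.21 for *ilys-3*, -7.65 for F11D11.3 and -7.64 for T20D4.7. Against generation 2 they were 3.88 for *fbxb-97*, 4.78 for *folt-2* (not called by DESeq2), 5.76 for *vit-4*, -12.4 for the collagen gene *col-117*, -6.74 for *col-167* and -6.41 for *col-147*. Against generation 10 they were 4.98 for *fbxb-97*, -9.36 for F07B7.2, -8.35 for *col-117*, 7.75 for *cld-1*, 5.11 for *col-17* and -7.89 for *bath-45*. The fitted values of *col-117*, *cld-1* and *nlp-39*, each at 0 in every library of a group, depend on the prior count and are no bounds.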

How the results depend on the processing

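Of 3738 values of the named genes over 16 alternatives, 3620 kept their side of the threshold, 66 lost the call and 52 gained it. A reversed sign was counted only where either value was called, and 0 were found. Sign changes of values that were never called were not counted. With no fold limit 5180 names were higher and 5963 lower at generation 1. Leaving out each generation 1 library in turn gave 1245 to 1324 higher and 3297 to 3420 lower. For the difference from 20°C it gave 1061 to 1144 and 2669 to 2755. The counts were 815 to 1157 and 2490 to 2822 against generation 2, and 1064 to 1166 and 2052 to 2148 against generation 10. Libraries of the other conditions were not left out. Scaled to library size only, 534 changes were more positive than at generation 2. Small RNA calls depended on filter and scaling: 1513 genes were enriched with filterByExpr, and 4046 when scaled to mapped reads, with mRNA medians of -0.35 for depleted and 0.44 for enriched genes, while without an RPM minimum 3945 were depleted (median -0.59). The medians of some lists near 0 reversed: early embryo genes to 0.064 (all 30 libraries) and 0.072 (at least 1 count), other spermatogenesis genes to -0.033 (library size) and -0.10 (upper quartile), histones to -0.080 (filterByExpr), -0.060 (library size), -0.13 (upper quartile) and between -0.106 and 0.072 without single libraries, WAGO genes to -0.074 and -0.14 and mitochondrial genes to -0.075 and -0.14 (library size and upper quartile), the last also between -0.046 (without wild-type replicate 2) and 0.158 without single libraries; the cause was not tested. At generation 1, mRNA samples of the same number did not deviate together (correlations of -0.132, -0.068 and -0.040 over 7833 names), so numbers do not pair them. The small RNA correlation was -0.036, which with 2 libraries in each group is the same for both pairs by construction. The other conditions were not examined in this way. A replicate block gave 1282 higher and 3439 lower at generation 1. For the differences from 20°C, generation 2 and generation 10 it gave 1099 and 2652, 896 and 2908, and 1115 and 2046. It gave 1318 depleted and 2502 enriched genes, and changed 0 calls of named genes in the generation 1 mRNA comparison. Depth limits the weak genes, where most lower calls lay.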
